A study of Rattus norvegicus with 105 samples.

Results

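The 33 genes described here mark astrocytes or carry out their known functions. They were chosen by name: a probe set (a group of short probes read out together) belonged to a member if the platform's annotation gave that gene's symbol, and where a gene had several, the 1 that was brightest on average over the arrays stood for it. Of the 33 genes, 31 had a probe set, 45 probe sets in all, out of 14217 genes with a symbol and 31042 probe sets on the array. Ednrb and Sox9 were not analysed here. Dio2 was measured but fell below the brightness filter, so 30 members were tested.

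Astrocytes are glial cells that fill the grey matter around neurons and blood vessels. They take up potassium and transmitters, move water and ions through channels and pumps at their end feet, are coupled by gap junctions, and secrete lipid carriers and matrix proteins that act at synapses. After injury they raise intermediate filament proteins, and Gfap is widely used as a marker of that reaction.

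The arrays measured RNA of rat frontal cortex in 3 experiments with 11 groups. The first set 12 arrays of rats given a ventral hippocampal lesion against 10 sham arrays. The second compared 11 arrays from rats whose ventral hippocampus was disrupted with tetrodotoxin (TTX), a toxin that blocks sodium channels and so silences neurons, with 9 sham arrays. The third, on chronic neuroleptics (antipsychotic drugs), held 9 vehicle arrays, 10, 9 and 8 arrays of low, medium and high clozapine, and 9 arrays of each of low, medium and high haloperidol. The labels name dose levels in words and give no strain, age or time. They do not tie each array to an animal of its own, so p-values speak of the scatter among arrays, which may be partly technical.

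Values are log2 intensities after quantile normalisation within an experiment, and a difference is a group mean minus the mean of its control, given with its standard error (SE). A probe set was called where limma's p, adjusted by Benjamini-Hochberg over the 18625 probe sets tested, was under 0.05. Astrocyte genes were bright: 19 of the 31 members lay at or above the 90th percentile of mean signal. All 15 neuronal markers looked at were also bright enough to be tested. The mean correlation of an array with the others of its experiment ran from 0.945 to 0.961, and 4 arrays stood low in it. The 3′ minus 5′ log2 signal of the beta-actin control, which is larger where RNA is more broken, ran from 0.46 to 1.34. That of the Gapdh control ran from -0.029 to 0.21. The array titles carry running numbers with no break inside an experiment, and no label names a batch. To look at array order, the numbers were cut here into assumed blocks, called runs: 36 to 46 and 47 to 57 in the lesion experiment, 126 to 135 and 136 to 145 in the TTX experiment, and 2 to 17, 18 to 31, 32 to 43 and 44 to 64 in the neuroleptic experiment. Whether the arrays were processed in such blocks is not known. In whole tissue, fewer astrocytes and less RNA per astrocyte cannot be told apart.

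No tested member was called in any of the 14 comparisons. With lesion the count was 0 of 30 members, beside 0.00% of all probe sets. With TTX it was 0 of 30, beside 0.00%, and for the lesion effect minus the TTX effect 0 of 30, beside 0.00%. Against vehicle it was 0 of 30 for the mean of the clozapine groups, beside 0.00%, and 0 of 30 for the mean of the haloperidol groups, beside 0.0215%. Between clozapine and haloperidol 0 of 30 members were called, beside 1.21% of all probe sets. For low, medium and high clozapine against vehicle the count was 0 each, beside 0.00%, 0.0215% and 0.00537%. For low, medium and high haloperidol it was 0 each, beside 0.00%, 0.00537% and 0.0268%, and for high against low dose 0 for each drug, beside 0.00% and 0.00%.

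At an unadjusted p under 0.05 the count was 1 member with lesion, beside 7.79% of all probe sets, 0 with TTX (4.66%), 1 for the difference of these effects (6.35%), 1 for clozapine (3.82%), 1 for haloperidol (6.77%) and 2 between the drugs (15.2%). The single member was the urea transporter Slc14a1 each time, and the pair between the drugs was Sparc and Acsbg1. In no comparison of a treated group with its control did the 2 groups' values fail to overlap for any member. Overlap was not counted over all probe sets, so this is a description of the members only.

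**Figure D1:**
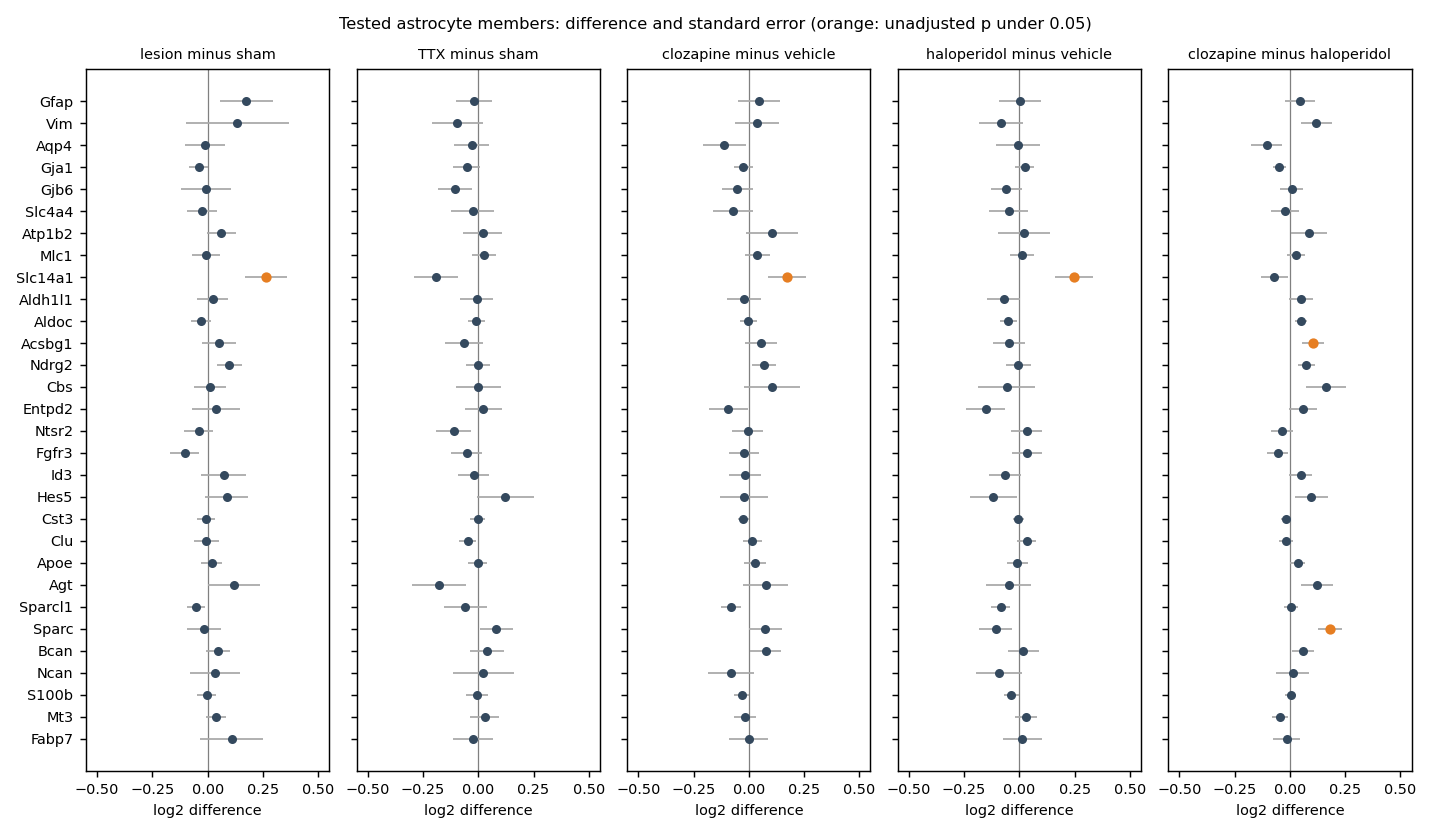
Log2 difference with its SE for the 30 tested members in 5 comparisons, with members at an unadjusted p under 0.05 in orange. The orange points are Slc14a1 with lesion (0.26), clozapine (0.17) and haloperidol (0.25), and Sparc (0.18) and Acsbg1 (0.10) between the drugs.

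Member differences were small and went both ways. With lesion 17 of 30 lay above 0 with a median of 0.020, beside 49.5% of all probe sets and a median of -0.0010. With TTX 9 of 30 lay above 0 with a median of -0.014, beside 49.7%; without TTX sham replicate 4 the count was 17 of 30. The lesion effect lay above the TTX effect for 23 of 30 members, with a median of 0.017, beside 50.2%. This contrast uses the same TTX sham arrays. In it 12 of 30 members changed sign when single arrays were left out, and 14 over the other alternatives. For clozapine 13 of 30 lay above vehicle (median -0.0027), beside 49.6%, and for haloperidol 11 of 30 (median -0.023), beside 43.1%. Clozapine lay above haloperidol for 20 of 30 (median 0.032), beside 56.1% and a median of 0.012 over all probe sets. The residual spread of the members was also modest, with a median SD of 0.16, 0.18 and 0.19 in the lesion, TTX and neuroleptic experiments, beside 0.20, 0.19 and 0.22 over all tested probe sets.

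RefSeq promoters (rat build GRCr8, here the 250 bases before the gene's start) were matched by symbol for 29 members. Both strands were searched, overlaps allowed, for 5 motifs. These were the letters TATAAA, known as the TATA box, the letters GGGCGG, known as the GC box, and the letters TTGGCA, which are part of the site of nuclear factor I. The other two were TTCNNNGAA for STAT proteins and the letters ACAAAG for SOX proteins. The GC box was in 18 of 29 members (62.1%) and 30.5% of all promoters, and the TATA box in 7 of 29 members (24.1%) and 12.9% of all promoters. The nuclear factor I motif was in 5 of 29 members (17.2%) and 12.0% of all promoters. The STAT site was in 2 of 29 members (6.90%) and 7.67% of all promoters, and the SOX site in 4 of 29 members (13.8%) and 16.3% of all promoters. Members were counted by gene, with a match in any promoter of that symbol. All 33469 promoters were counted singly and were not limited to genes on the array, so the 2 percentages are not strictly alike. Below are 4 promoters of genes that the results turn on, 5′ to 3′ on the gene's strand. The intermediate filament genes are Gfap (chr10:88361662-88361911, minus strand) and Vim (chr17:81577011-81577260, plus strand). Slc4a4 (chr14:19468283-19468532, minus strand) is the bicarbonate transporter gene, whose 2 probe sets differed. Sparc (chr10:40038817-40039066, minus strand) was the member nearest to a call by the brightest probe sets. Capitals mark matches to the motifs; they are letters found, not shown binding sites.
Gfap: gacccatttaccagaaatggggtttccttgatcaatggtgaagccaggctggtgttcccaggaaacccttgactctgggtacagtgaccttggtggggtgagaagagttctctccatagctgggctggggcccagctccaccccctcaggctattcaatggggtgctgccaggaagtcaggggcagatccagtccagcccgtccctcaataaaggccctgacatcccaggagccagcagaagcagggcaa
Vim: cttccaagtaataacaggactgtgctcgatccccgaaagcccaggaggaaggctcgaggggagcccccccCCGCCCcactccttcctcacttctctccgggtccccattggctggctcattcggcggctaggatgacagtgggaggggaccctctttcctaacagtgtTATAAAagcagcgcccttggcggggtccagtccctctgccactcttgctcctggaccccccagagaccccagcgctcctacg
Slc4a4: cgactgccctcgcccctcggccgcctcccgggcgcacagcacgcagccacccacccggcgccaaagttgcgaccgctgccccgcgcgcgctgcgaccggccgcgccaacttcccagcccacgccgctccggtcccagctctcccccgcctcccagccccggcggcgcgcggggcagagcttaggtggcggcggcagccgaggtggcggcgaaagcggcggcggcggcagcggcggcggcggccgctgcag
Sparc: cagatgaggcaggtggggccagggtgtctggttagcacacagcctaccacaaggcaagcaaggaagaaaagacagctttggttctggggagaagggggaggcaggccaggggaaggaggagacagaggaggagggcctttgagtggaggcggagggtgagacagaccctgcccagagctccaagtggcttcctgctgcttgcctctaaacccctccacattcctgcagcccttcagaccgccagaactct
The Vim stretch holds a TATA box 82 bases and a GC box, on the opposite strand, 180 bases before the start. The other 3 hold none of the 5 motifs in this window. The G and C content was 57.6% for Gfap, 62.4% for Vim, 80.8% for Slc4a4 and 60.0% for Sparc, beside a median of 51.2% over all promoters.

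Gfap, the intermediate filament protein of astrocytes, read 14.10 to 15.28 (median 14.64) on the lesion arrays and 14.06 to 14.68 (median 14.53) on their sham arrays. The groups overlapped, and 5 of the 12 lesion arrays lay above the highest sham array. The difference was 0.17 ± 0.12 (limma adjusted p = 0.759), with 9 of 12 lesion arrays above the sham mean. Within the 2 assumed runs it was 0.27 and 0.078. Lesion replicate 4 had the highest Gfap of its group, and without it the difference was 0.12.

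With TTX, Gfap read 13.85 to 14.57 (median 14.28), beside 14.09 to 14.56 (median 14.23) in sham, and the groups covered nearly the same range. The difference was -0.019 ± 0.081, and the lesion effect minus the TTX effect was 0.19 ± 0.15 (limma adjusted p = 0.868). Against vehicle, at 14.18 to 14.80 (median 14.41), the clozapine mean of Gfap differed by 0.045 ± 0.095 and the haloperidol mean by 0.00097 ± 0.095.

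Vim, the second filament gene, is made by astrocytes and strongly by meningeal and vascular cells. It read 12.20 to 14.01 (median 13.60) with lesion and 11.68 to 13.96 (median 13.66) in sham, and 1 array of each group, lesion replicate 12 and lesion sham replicate 8, held the lowest values of the experiment. The difference was 0.13 ± 0.23 (limma adjusted p = 0.918), but -0.051 without lesion sham replicate 8, 0.25 without lesion replicate 12 and 0.066 without both. Vim differed by -0.095 ± 0.12 with TTX, 0.036 ± 0.10 with clozapine and -0.084 ± 0.10 with haloperidol.

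The same 2 arrays were lowest of the lesion experiment in a score of meningeal and choroid plexus markers, at -1.23 and -1.69 on a log2 scale centred on the experiment. Over the 22 arrays of that experiment, Vim's deviations from group means followed the score with Pearson's r = 0.932 and Spearman's rho = 0.767 (permutation p = 1e-05 and 8e-05; 1e-05 is the smallest that 100000 permutations can give). Without the 2 arrays farthest out r was 0.747, and within the runs it was 0.686 and 0.984.

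Over the 63 arrays of the neuroleptic experiment Vim gave r = 0.779 and rho = 0.709 with the score (permutation p = 1e-05 and 1e-05), r = 0.739 without the 2 farthest arrays, and 0.911, 0.752, 0.429 and 0.753 within its 4 runs. Over the 20 arrays of the TTX experiment r was 0.330 and rho 0.549 (permutation p = 0.156 and 0.0136), with r = 0.636 without the 2 farthest and 0.275 and 0.877 within runs. Adjusted by Benjamini-Hochberg over the 93 relations of this family (31 members in 3 experiments), the permutation p of r was 0.000465, 0.000465 and 0.418 in the lesion, neuroleptic and TTX experiments. Members with an adjusted p under 0.05 numbered 1, 3 and 2 in the lesion, TTX and neuroleptic experiments. Besides Vim these were Aqp4, Gja1 and Slc4a4 in the TTX experiment, with r of 0.629, 0.726 and 0.652, and Gjb6 in the neuroleptic experiment, with r of 0.539. The counts of 1, 3 and 2 members have no counterpart over all probe sets, which was not computed. For Gfap r was -0.000659, -0.0870 and 0.274 in the lesion, TTX and neuroleptic experiments.

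**Figure D2:**
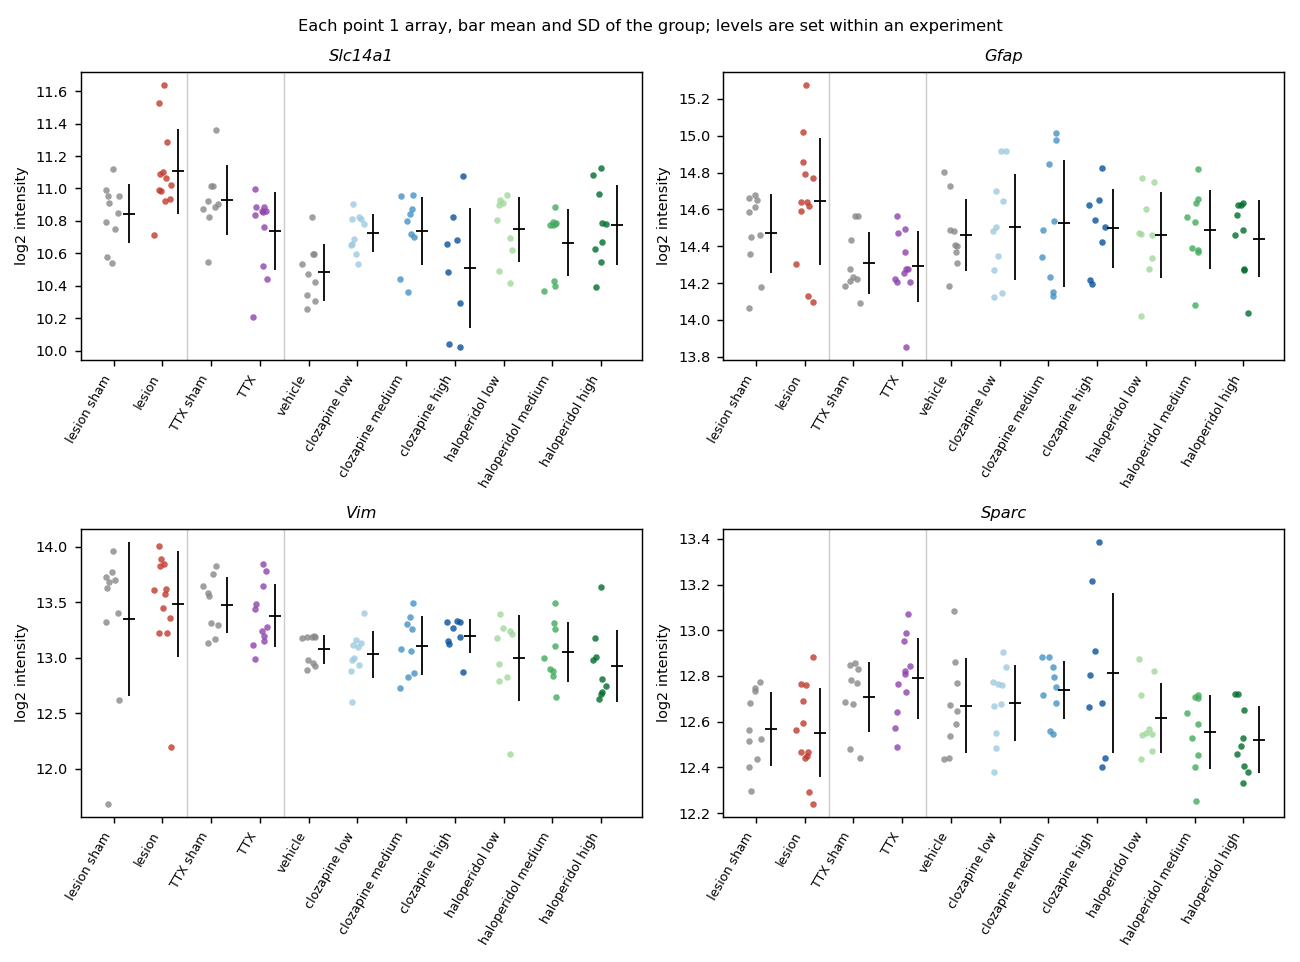
Log2 intensity of Slc14a1, Gfap, Vim and Sparc on every array, grouped by the 11 groups, with each group's mean and SD. Treated and control points overlap for all 4 genes, and the lowest Vim values of the lesion experiment are 12.20 with lesion and 11.68 in sham.

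The channels, junction proteins and transporters are the water channel Aqp4, the connexins Gja1 and Gjb6, the bicarbonate transporter Slc4a4, the sodium pump subunit Atp1b2, the membrane protein Mlc1 and the urea transporter Slc14a1. Above 0 were 2 of these 7 with lesion, 2 with TTX, 3 with clozapine and 4 with haloperidol.

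Slc14a1 stood at the top of the members with lesion. It read 10.71 to 11.64 (median 11.04) with lesion and 10.54 to 11.12 (median 10.88) in sham. The groups overlapped, with 3 of 12 lesion arrays above the highest sham array and 11 of 12 above the sham mean. The difference was 0.26 ± 0.095 (unadjusted p = 0.0108, limma adjusted p = 0.588). It was 0.29 and 0.23 within the 2 runs and 0.21 to 0.30 when single arrays were left out.

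With TTX, Slc14a1 read 10.20 to 11.00 (median 10.86), beside 10.55 to 11.36 (median 10.91) in sham. The TTX arrays reached lower, and 1 of 11 lay above the sham mean. The difference was -0.19 ± 0.099 (unadjusted p = 0.0673, limma adjusted p = 0.999), and -0.31 and -0.11 within the runs. The lesion effect minus the TTX effect was 0.45 ± 0.14 (unadjusted p = 0.00228, limma adjusted p = 0.708).

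In the neuroleptic experiment Slc14a1 read 10.26 to 10.82 (median 10.47) in vehicle, and 10.53 to 10.90 (median 10.73), 10.36 to 10.96 (median 10.80) and 10.02 to 11.07 (median 10.57) on low, medium and high clozapine. On low, medium and high haloperidol it read 10.42 to 10.96 (median 10.81), 10.37 to 10.89 (median 10.78) and 10.40 to 11.13 (median 10.78). Each treated group overlapped vehicle, and each had a higher median.

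The clozapine mean of Slc14a1 was 0.17 ± 0.086 above vehicle (unadjusted p = 0.0474, limma adjusted p = 0.977), with 21 of 27 arrays above the vehicle mean. The haloperidol mean was 0.25 ± 0.086 above vehicle (unadjusted p = 0.00580, limma adjusted p = 0.621), with 22 of 27. Both use the same 9 vehicle arrays. Within the 4 runs, each with 2 or 3 vehicle arrays, the clozapine difference was 0.088, 0.16, 0.31 and 0.17 and the haloperidol difference -0.085, 0.35, -0.013 and 0.53, so the haloperidol difference lay below 0 in 2 of the 4. Within a run the arrays of a drug were pooled over dose, and the third run holds no high haloperidol array. By dose, clozapine differed from vehicle by 0.24, 0.25 and 0.026 at low, medium and high dose, and haloperidol by 0.26, 0.18 and 0.29.

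A second Slc14a1 probe set gave 0.14 ± 0.12 with lesion, -0.15 ± 0.13 with TTX, 0.11 ± 0.087 with clozapine and 0.20 ± 0.087 with haloperidol, the same signs as the brighter one. From array to array the 2 probe sets barely followed each other: the correlation of their deviations from group means was -0.0362, 0.0322 and 0.106 in the lesion, TTX and neuroleptic experiments.

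Aqp4 read 13.65 to 14.44 (median 14.24) with lesion and 13.98 to 14.41 (median 14.11) in sham, a difference of -0.011 ± 0.091. It differed by -0.030 ± 0.078 with TTX, -0.11 ± 0.099 with clozapine and -0.0053 ± 0.098 with haloperidol. Gja1, the main connexin of astrocytes, differed by -0.040 ± 0.042 with lesion and -0.053 ± 0.060 with TTX, and its partner Gjb6 by -0.0086 ± 0.11 with lesion and -0.11 ± 0.076 with TTX. Atp1b2 differed by 0.061 ± 0.066 with lesion and 0.019 ± 0.088 with TTX, and Mlc1, whose loss causes a leukodystrophy with brain swelling, by -0.0078 ± 0.062 with lesion and 0.027 ± 0.054 with TTX. The brightest probe sets of these 5 genes did not pass an unadjusted p of 0.05 in any of the 6 main comparisons.

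Aqp4 had 2 further probe sets, and between clozapine and haloperidol their differences were -0.17 ± 0.072 (unadjusted p = 0.0207, limma adjusted p = 0.230) and -0.087 ± 0.041 (unadjusted p = 0.0347, limma adjusted p = 0.281). The brightest gave -0.11 ± 0.070 (unadjusted p = 0.137, limma adjusted p = 0.476). For the clozapine mean against vehicle the further 2 gave 0.0090 ± 0.10 and -0.00017 ± 0.058, and the mean of all 3 probe sets -0.034, nearer 0 than the brightest. The beta-actin 3′ minus 5′ value, which Aqp4 followed from array to array, was 0.95 ± 0.13 (SD, n = 10), 0.94 ± 0.10 (SD, n = 9) and 0.94 ± 0.14 (SD, n = 8) on low, medium and high clozapine, and 1.002 ± 0.133 (SD, n = 9), 0.999 ± 0.160 (SD, n = 9) and 1.122 ± 0.142 (SD, n = 9) on low, medium and high haloperidol. The Gapdh 3′ minus 5′ value ordered the groups otherwise. It averaged 0.098, 0.078 and 0.048 on low, medium and high clozapine. On low, medium and high haloperidol it averaged 0.113, 0.097 and 0.078. The part of either value in the Aqp4, enzyme and Sparc differences between the drugs was not tested.

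The 2 probe sets of Slc4a4 read differently for haloperidol. The brighter differed from vehicle by -0.049 ± 0.090, and the second by 0.41 ± 0.13 (unadjusted p = 0.00200, limma adjusted p = 0.508). The second read 10.96 to 11.67 (median 11.39) in vehicle and 11.50 to 12.28 (median 11.87), 11.44 to 12.38 (median 11.89) and 10.84 to 12.27 (median 11.89) on low, medium and high haloperidol; the groups overlapped, and each haloperidol median lay above the highest vehicle array. Its difference was 0.33, 0.56, 0.61 and 0.40 within the 4 runs. Between clozapine and haloperidol it was -0.32 ± 0.092 (limma adjusted p = 0.0563), and 0.010, -0.34, -0.62 and -0.46 within runs, while the brighter probe set gave -0.022 ± 0.064. Their deviations correlated at 0.143, 0.203 and -0.148 in the lesion, TTX and neuroleptic experiments. This second probe set was picked out after its values were seen. Of the further probe sets of members, 9 were tested for haloperidol and 5 had the sign of the brightest. Of these 9, 0 were called, beside 0.0215% of all probe sets, and 2 had an unadjusted p under 0.05, beside 6.77%. Between the drugs 9 were tested and 7 had the sign of the brightest. There 0 were called, beside 1.21%, and 3 had an unadjusted p under 0.05, beside 15.2%.

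The enzymes are Aldh1l1 (folate metabolism), Aldoc (glycolysis), Acsbg1 (activation of long-chain fatty acids), Cbs (cysteine synthesis), Entpd2 (breakdown of extracellular ATP) and Dio2 (activation of thyroid hormone), and Ndrg2, an astrocyte-enriched protein, was grouped with them. Above 0 were 5 of 6 tested with lesion, 2 with TTX, 3 with clozapine and 0 with haloperidol. Between the drugs all 6 lay on the clozapine side, from 0.049 to 0.16 with a median of 0.066. Over all probe sets 56.1% lay on that side, with a median of 0.012. The beta-actin 3′ minus 5′ value given above with Aqp4 was higher on average in each haloperidol group than in each clozapine group.

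Acsbg1 between the drugs read 13.08 to 13.54 (median 13.27), 12.87 to 13.62 (median 13.30) and 12.82 to 13.46 (median 13.24) on low, medium and high clozapine. On low, medium and high haloperidol it read 12.76 to 13.30 (median 13.09), 12.82 to 13.38 (median 13.24) and 12.89 to 13.48 (median 13.13). The ranges overlapped widely, with 21 of 27 clozapine arrays above the haloperidol mean. The difference was 0.10 ± 0.051 (unadjusted p = 0.0457, limma adjusted p = 0.319), and 0.011, 0.090, 0.064 and 0.17 within the runs. Cbs differed by 0.16 ± 0.090 (limma adjusted p = 0.387). With the beta-actin value, r over the neuroleptic arrays was -0.324 for Acsbg1 and -0.571 for Cbs, given as descriptions.

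Entpd2 read 9.82 to 10.53 (median 10.36) on high haloperidol and 10.19 to 10.96 (median 10.52) in vehicle. All 9 treated arrays lay below the vehicle mean, though the groups overlapped. The difference was -0.28 ± 0.11 (unadjusted p = 0.0110, limma adjusted p = 0.485), beside -0.14 ± 0.11 and -0.035 ± 0.11 at low and medium haloperidol against the same vehicle arrays. The beta-actin 3′ minus 5′ value was 1.12 ± 0.14 (SD, n = 9) on high haloperidol and 0.94 ± 0.11 (SD, n = 9) in vehicle. The Gapdh value was 0.078 ± 0.054 (SD, n = 9) and 0.070 ± 0.049 (SD, n = 9). The part of either in the Entpd2 value was not tested.

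Ndrg2 differed by 0.097 ± 0.057 with lesion (limma adjusted p = 0.717), with 10 of 12 arrays above the sham mean. Aldh1l1 differed by 0.023 ± 0.071 with lesion and -0.0078 ± 0.074 with TTX, and Aldoc by -0.030 ± 0.045 with lesion and -0.0087 ± 0.038 with TTX. Dio2 was dim and scattered. It read 6.10 to 8.82 (median 8.25) in vehicle and, on low, medium and high clozapine, 6.25 to 9.10 (median 8.34), 7.71 to 9.35 (median 8.48) and 7.78 to 9.21 (median 8.66). Its clozapine mean was 0.61 ± 0.28 above vehicle and its haloperidol mean 0.35 ± 0.28, with no test.

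Of the receptors, Fgfr3, which binds fibroblast growth factors, read 12.55 to 12.91 (median 12.61) with lesion and 12.46 to 13.17 (median 12.70) in sham. The groups overlapped, and 1 of 12 lesion arrays lay above the sham mean. The difference was -0.10 ± 0.066 (limma adjusted p = 0.741), and -0.052 without the arrays of low mean correlation. Ntsr2, a neurotensin receptor, differed by -0.041 ± 0.066 with lesion and -0.11 ± 0.080 with TTX. The transcription regulators Id3 and Hes5 differed by 0.072 ± 0.10 and 0.085 ± 0.096 with lesion and by -0.066 ± 0.073 and -0.12 ± 0.11 with haloperidol.

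The secreted proteins are the protease inhibitor Cst3, the chaperone Clu, the lipid carrier Apoe, the angiotensin precursor Agt, and Sparcl1 and Sparc, of which the former promotes synapse formation and the latter opposes it. By the brightest probe sets, Sparc was the member nearest to a call. It read 12.38 to 12.91 (median 12.72), 12.55 to 12.88 (median 12.75) and 12.40 to 13.39 (median 12.74) on low, medium and high clozapine. On low, medium and high haloperidol it read 12.44 to 12.87 (median 12.55), 12.26 to 12.72 (median 12.59) and 12.33 to 12.72 (median 12.50). Vehicle read 12.44 to 13.08 (median 12.64), its median between those of the 2 drugs, and all groups overlapped.

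The clozapine mean of Sparc lay 0.18 ± 0.053 above the haloperidol mean (unadjusted p = 0.00116, limma adjusted p = 0.0634), with 20 of 27 clozapine arrays above the haloperidol mean. It was 0.14, 0.13, 0.21 and 0.25 within the 4 runs. Sparc was called with the assumed runs as a term (0.19, limma adjusted p = 0.0251), with array weights (0.18, limma adjusted p = 0.0385) and in 7 of 63 fits that left out 1 array, the smallest limma adjusted p being 0.0180 without high clozapine replicate 2. Over those 63 fits the difference ran from 0.15 to 0.20 and the adjusted p up to 0.113. By dose it differed from vehicle by 0.011, 0.070 and 0.14 for clozapine and by -0.056, -0.12 and -0.15 for haloperidol, all against the same vehicle arrays. The other Sparc probe set gave 0.20 ± 0.13 between the drugs and correlated with the brighter one at 0.178.

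Sparc is also made by endothelial cells, and 11 of 15 endothelial and mural markers lay on the clozapine side too, with a median of 0.084 and 0 called. Emcn gave 0.18 ± 0.052 (limma adjusted p = 0.0611), Vwf 0.30 ± 0.12 (0.203) and Cldn5 0.11 ± 0.052 (0.272). Their part in the Sparc value was not tested. With the beta-actin 3′ minus 5′ value, which was higher in the haloperidol groups, Sparc gave r = -0.0201 over the neuroleptic arrays, given as a description.

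Of the 27 clozapine arrays 2 exceeded the vehicle mean in Sparcl1, a difference of -0.081 ± 0.043 (limma adjusted p = 0.977), and of the 27 haloperidol arrays 7 did, -0.085 ± 0.043 (limma adjusted p = 0.753), against the same vehicle arrays. On the values as deposited, without quantile normalisation, the Sparcl1 differences were -0.0044 for clozapine and -0.030 for haloperidol. Agt differed by 0.12 ± 0.12 with lesion and -0.18 ± 0.12 with TTX (0.18 with lesion without the arrays of low mean correlation), and the difference of these effects was 0.30 ± 0.17 (limma adjusted p = 0.820). Apoe differed by 0.017 ± 0.049 with lesion and -0.0024 ± 0.042 with TTX, Clu by -0.0055 ± 0.058 with lesion and -0.047 ± 0.039 with TTX (-0.023 with TTX on the values as deposited) and Cst3 by -0.0066 ± 0.040 with lesion and -0.0028 ± 0.035 with TTX. Cst3 had the lowest residual SD of the members in all 3 experiments, at 0.068, 0.046 and 0.052 in the lesion, TTX and neuroleptic experiments.

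The matrix proteoglycans Bcan and Ncan, parts of the net around neurons, differed by 0.046 ± 0.054 and 0.033 ± 0.11 with lesion. Of the binding proteins, the calcium-binding S100b differed by -0.0045 ± 0.042 with lesion and -0.0055 ± 0.049 with TTX, the metal-binding Mt3 by 0.037 ± 0.046 with lesion and 0.030 ± 0.066 with TTX and the fatty-acid-binding Fabp7 by 0.11 ± 0.14 with lesion and -0.024 ± 0.092 with TTX. Fabp7 read 12.09 to 13.57 (median 12.73) with lesion and 12.04 to 12.92 (median 12.74) in sham. Its highest value was on lesion replicate 4, which was also the highest lesion array for Gfap, Slc14a1 and Entpd2.

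From array to array the members moved together only in part. Over the 435 pairs of tested members the median correlation of deviations from group means was 0.149 in the lesion experiment, 0.251 in the TTX experiment and 0.0943 in the neuroleptic experiment. Between members and every 20th tested probe set it was -0.0106, 0.000474 and -0.00202. Arrays share hybridisation and normalisation, so these are descriptions. Group accounted for 8.15%, 2.21% and 8.99% of the variance of the members' mean score in the lesion, TTX and neuroleptic experiments, and run for 4.90%, 2.32% and 26.7%.

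Aqp4 and Slc4a4 were the tightest pair in the TTX experiment, with r = 0.941 and rho = 0.922 over 20 arrays (permutation p = 1e-05 and 1e-05, adjusted p of r = 0.000150 over 90 relations), r = 0.922 without the 2 farthest arrays and 0.901 and 0.913 within runs. Over the 63 neuroleptic arrays the pair gave r = 0.792 and rho = 0.789 (permutation p = 1e-05 and 1e-05, adjusted p of r = 0.000150) and r = 0.810 without the 2 farthest. Within the 4 runs r was 0.409, 0.671, -0.262 and 0.555, so the relation did not hold within all of them. In the lesion experiment r was 0.254. These relations are of the brightest probe set of each gene. The brightest Aqp4 probe set correlated with the 2 further Aqp4 probe sets at only 0.130 and 0.165 in the TTX experiment. The values were 0.432 and 0.335 in the neuroleptic experiment and 0.524 and 0.557 in the lesion experiment.

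Apoe ran opposite to Aqp4 in the neuroleptic experiment, with r = -0.711 and rho = -0.708 (permutation p = 1e-05 and 1e-05, adjusted p of r = 0.000150), r = -0.657 without the 2 farthest arrays and -0.325, -0.621, -0.713 and -0.537 within runs. An adjusted p under 0.05 for r with Aqp4 was reached by 5, 6 and 22 of 30 members in the lesion, TTX and neuroleptic experiments. Over the neuroleptic arrays r lay above 0 for 12 of the 30, with a median of -0.324. The share of all probe sets that would pass was not computed. In the neuroleptic experiment Bcan also correlated with Atp1b2 at 0.807, with Gfap at 0.741 and with Aldoc at 0.710, given as descriptions.

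**Figure D3:**
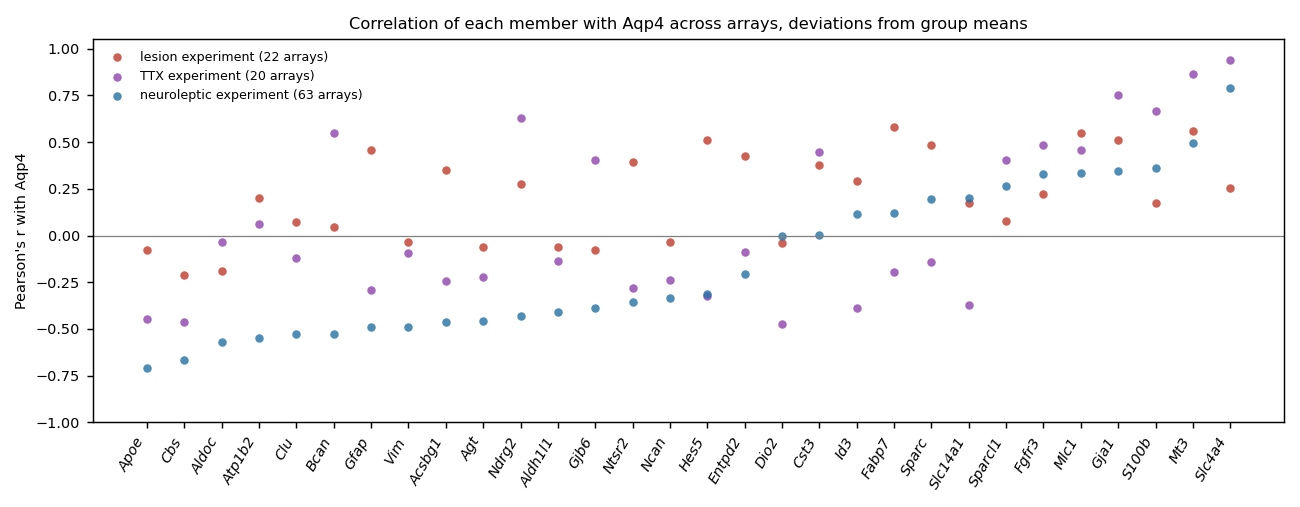
Pearson's r of each other measured member with Aqp4 over the arrays of each of the 3 experiments, from deviations from group means. Each gene is shown by its brightest probe set. In the neuroleptic experiment r runs from -0.711 for Apoe to 0.792 for Slc4a4.

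Aqp4 and Apoe also ran opposite ways against the beta-actin 3′ minus 5′ value. Over the 63 neuroleptic arrays Aqp4 gave r = 0.747 and rho = 0.754 with the beta-actin 3′ minus 5′ value (permutation p = 1e-05 and 1e-05, adjusted p of r = 0.000310 over 93 relations), r = 0.725 without the 2 farthest arrays and 0.721, 0.734, -0.00370 and 0.346 within runs. Apoe gave r = -0.483 and rho = -0.487 (permutation p = 5e-05 and 6e-05, adjusted p of r = 0.000930), and r = -0.493 without the 2 farthest. Within runs its r was -0.237, -0.273, 0.209 and -0.123, weaker in each than over all arrays and above 0 in the third. The permutations exchanged arrays of different runs, so their p does not separate a relation within runs from shifts between runs. An adjusted p under 0.05 was reached by 4, 4 and 21 of 31 members in the lesion, TTX and neuroleptic experiments. The share over all probe sets was not computed, so these counts are not shown to be particular to astrocyte genes. Relations to the Gapdh value were not computed. The part of RNA integrity in the treatment comparisons was not tested.

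**Figure D4:**
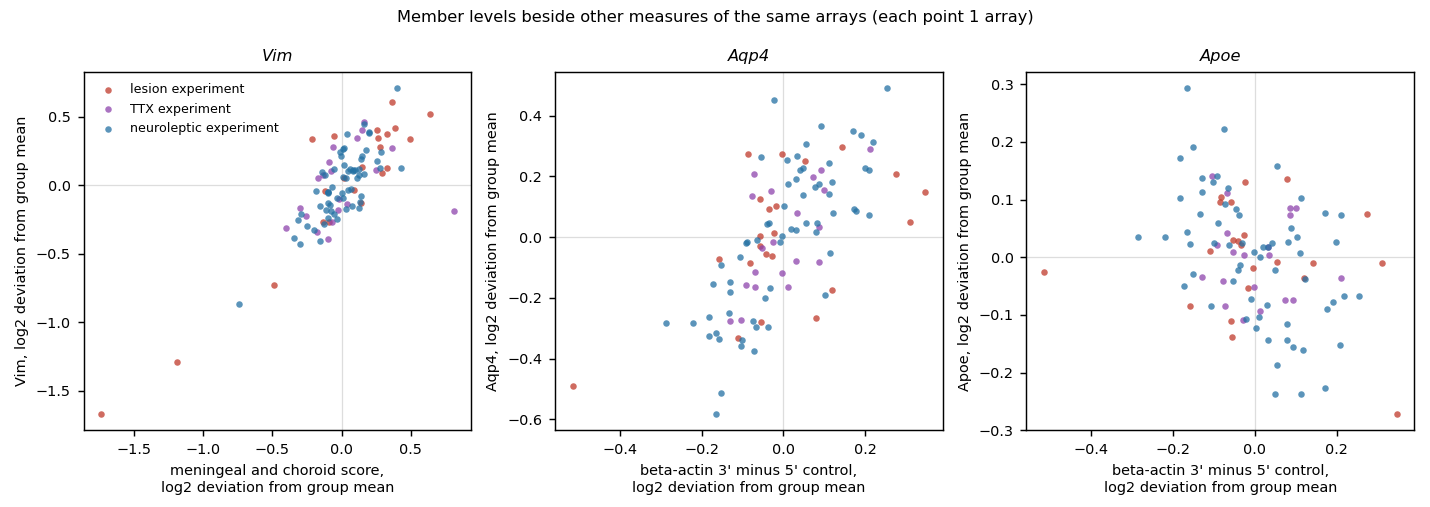
Deviations from group means, 1 point per array: Vim against the meningeal and choroid score, and Aqp4 and Apoe against the beta-actin 3′ minus 5′ value. Vim is higher where the score is higher (r = 0.932 in the lesion experiment), while Aqp4 and Apoe slope in opposite directions (r = 0.747 and -0.483 in the neuroleptic experiment).

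Among 28 tested astrocyte genes outside the 33, 6 lay above sham with lesion (median -0.051) and 8 with TTX (median -0.027), and 0 were called in either. Over all probe sets 49.5% and 49.7% lay above sham, and 0.00% were called in either. Daam2 gave -0.39 ± 0.11 with lesion (unadjusted p = 0.00127, limma adjusted p = 0.508), the glutamate transporter Slc1a3 -0.096 ± 0.049 and the tissue factor gene F3 0.19 ± 0.089.

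Of 12 tested genes of reactive astrocytes, 8 lay above sham with lesion (median 0.068) and 4 of 12 with TTX (median -0.059), beside 49.5% and 49.7% of all probe sets. The lesion effect lay above the TTX effect for all 12 of those tested in that fit, by a median of 0.10, beside 50.2% of all probe sets, and 0 were called. In the mean score of the reactive genes, lesion replicate 4 was highest of the lesion experiment, at 0.412. Lesion sham replicate 8 was lowest, at -0.323. The count of 12 was not repeated without these arrays. Lgals3, which microglia and macrophages also make, gave 0.88 ± 0.38 with lesion (unadjusted p = 0.0300, limma adjusted p = 0.607).

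Microglial markers lay above sham with lesion for 9 of 12 (median 0.060), beside 49.5% of all probe sets, with Ctss at 0.23 ± 0.096 and Trem2 at 0.27 ± 0.13. Oligodendrocyte markers did so for 0 of 14 (median -0.13). Their mean score was -0.053 with lesion and 0.064 in its sham group. With TTX it was much alike, at -0.053 beside 0.065 in TTX sham. The oligodendrocyte score ran from -0.559 to 0.514 on lesion arrays and from -0.129 to 0.350 on sham arrays. The microglial score ran from -0.183 to 0.279 with lesion and from -0.220 to 0.182 in sham. The lesion and sham groups overlapped in both scores, and none of these markers was called, beside 0.00% of all probe sets. Fabp7 followed the microglial score in the lesion experiment, with r = 0.716 and rho = 0.796 over 22 arrays (permutation p = 0.000120 and 1e-05, adjusted p of r = 0.00558 over 93 relations), r = 0.722 without the 2 farthest arrays and 0.769 and 0.644 within runs. The part of these cells in the members' values was not tested.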

How the data were processed

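RNA from rat frontal cortex was measured on arrays in 3 experiments. The deposited intensity values are linear, and their 2% trimmed mean is 2500.6 to 2500.8 on every array; the software that made them is not given in the sources used here, and there are no detection calls. Array medians ran from 775.1 to 962.3, and 6.04% of values lay under the floor. Values were quantile normalised within each experiment, floored at 32 and converted to log2. Of 31099 probe sets, 57 controls were dropped; 20826 had 1 symbol, 436 several and 9780 none. The brightest 60% were tested with limma 3.58.1 in R 4.3.3 (lmFit, eBayes, 1 mean per group), adjusting by Benjamini-Hochberg within a comparison. Drug means weight the 3 dose levels equally. The script was tested on simulated data. Correlations used deviations from group means with 100000 permutations, two-sided, in 4 families. All arrays of an experiment were exchanged without regard to run. Groups come from the labels; runs are blocks cut here from the unbroken title numbers (in the middle for the lesion and TTX experiments, at changes in the order of groups for the neuroleptics); replicate numbers follow accession order and pair nothing. All 33 members could be named, and of each other list up to 4 genes with the smallest p in a main comparison. Members and lists were chosen with earlier results of these data known. No 2 arrays held identical values.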

Additional observations from a re-analysis of the deposited data

Results flagged for a closer look

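Of 279 sets of 1 member in 1 group of 4 to 10 samples, 12 (4.30%) held an array whose gap to the nearest other was a large part of the range (Dixon's 95% critical value), and chance alone marks about 1 set in 20. The lesion and TTX groups, with 12 and 11 arrays, were too large for this screen and were not looked at. Vim was lowest on high clozapine replicate 2, at 12.87 beside 13.12 on the nearest array. Vim was lowest on low haloperidol replicate 2, at 12.13 beside 12.79 on the nearest array. Aldh1l1 was lowest on low haloperidol replicate 9, at 10.88 beside 11.25 on the nearest array. Ndrg2 was highest on vehicle replicate 6, at 16.08 beside 15.82 on the nearest array. Cbs was lowest on low clozapine replicate 10, at 11.00 beside 11.47 on the nearest array. Dio2 was lowest on low clozapine replicate 10, at 6.25 beside 7.84 on the nearest array. Cst3 was lowest on medium clozapine replicate 9, at 16.40 beside 16.50 on the nearest array. Cst3 was highest on high haloperidol replicate 8, at 16.70 beside 16.57 on the nearest array. Sparcl1 was lowest on TTX sham replicate 5, at 16.16 beside 16.62 on the nearest array. Sparcl1 was lowest on medium haloperidol replicate 8, at 16.33 beside 16.58 on the nearest array. Sparcl1 was lowest on low haloperidol replicate 8, at 16.23 beside 16.58 on the nearest array. S100b was highest on lesion sham replicate 9, at 16.43 beside 16.29 on the nearest array. Low clozapine replicate 10 was marked for 2 members, Cbs and Dio2. Lesion sham replicate 9, medium haloperidol replicate 8 and high haloperidol replicate 8 were also among the 4 arrays with a low mean correlation. Values are log2 intensities.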

How the results depend on the processing

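The alternatives were values as deposited without quantile normalisation, a floor of 64, no brightness filter, a filter at the brightest 40%, the mean of all probe sets of a gene, the assumed runs as a term, array weights, leaving out the 4 arrays of low mean correlation, and leaving out each array in turn; leaving out lesion replicate 12 and lesion sham replicate 8 was chosen after seeing the data. No member was called in the comparisons with a control or between lesion and TTX under those run there. Between clozapine and haloperidol the count of members called moved from 0 to 1, Sparc, with the runs as a term, which are blocks of title numbers cut here and not batches named by the labels, and with array weights, and was 0 to 1 when single arrays were left out. Members above 0 with TTX numbered 7 to 17 when single arrays were left out, the highest without TTX sham replicate 4. The members' median ran over the alternatives from 0.0024 to 0.039 with lesion, -0.039 to 0.0033 with TTX, 0.0081 to 0.062 for their difference, -0.016 to 0.032 with clozapine, -0.030 to -0.0038 with haloperidol and 0.022 to 0.044 between the drugs. Over the alternatives other than leaving out single arrays, 9, 10, 14, 10, 11 and 6 of 30 members changed sign in these 6 comparisons. No paired analysis was possible because the labels give the groups no shared replicate numbers. The number of arrays and the lack of detection calls limit what can be seen in dim genes such as Dio2.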
